A study of Mus musculus with 6 samples.

Results

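The Krüppel-like factors (KLFs) are zinc finger transcription factors, and 9 of their genes (*Klf2*, *Klf3*, *Klf4*, *Klf5*, *Klf6*, *Klf9*, *Klf10*, *Klf13* and *Klf15*) were taken by symbol from RNA-seq of mouse kidney cells. They are 9 of 55367 gene symbols in each library, and all 9 are among the 14862 genes that passed a filter on low values. Levels are given as FPKM (fragments per kilobase of exon, scaled to the mapped reads of a library), a scale per length. The length holds the exons of all annotated transcripts of a gene, so an order of genes on this scale depends on the annotation. The cells bound *Dolichos biflorus* agglutinin (DBA), a lectin that marks collecting duct epithelium, and were isolated at the time point Day115 after enzymatic digestion of the kidney. WT libraries came from saline-treated wild-type mice. ADPKD libraries (autosomal dominant polycystic kidney disease) came from saline-treated male *Pkd1*-/- mice, in which tamoxifen had activated the Cre of the line *Pkd1* fl/fl;Cre/Esr1+. ADPKD+MMPP libraries came from male *Pkd1*-/- mice of the same line, also given tamoxifen. They were then treated intravenously with MMPP, a melanin-like nanoparticle that holds Mn2+ and polyethylene glycol. Each group has 2 libraries. The sources used here do not state how many animals gave each library, which promoter drives the Cre or whether WT mice had tamoxifen, so p-values measure the spread between these libraries, which may be technical.

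KLFs share a zinc finger domain at their carboxyl end that binds GC-rich and CACCC sequences, and differ in the rest of the protein, which recruits activators or repressors. *Klf2* and *Klf4* are known as genes that blood flow induces in endothelium through the kinases MEK5 and ERK5 and MEF2 factors, and *Klf4* also for epithelial differentiation. *Klf5* is known in proliferating epithelium and the collecting duct, and *Klf6* as an early gene of tissue injury. *Klf9* and *Klf15* are targets of the glucocorticoid receptor, *Klf13* is a close relative of *Klf9*, *Klf10* is an early gene of TGF-β signalling, and *Klf3* is a repressor that works with CtBP proteins.

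By the steps of single reads in the values, depth was about 30600000 to 33100000 reads in the WT and ADPKD libraries and 10900000 to 11800000 in the ADPKD+MMPP libraries. Of the low values in the ADPKD+MMPP libraries, 8.93% and 9.24% were odd read numbers, against 38.6% to 40.2% in the other 4 libraries, and all 18 read numbers of the KLF genes were even there, against 9 of 18 in WT and 12 of 18 in ADPKD. Across 12375 protein-coding genes, the fold change between ADPKD+MMPP and ADPKD rose with the part of its exons found in exactly 1 annotated transcript, called exon share here (Spearman's rho 0.65), while that between ADPKD and WT did not (rho 0.045); genes share their library and are not independent points. These differences between the libraries, whose source is not given in the sources used here, and the treatment cannot be told apart in any comparison with the ADPKD+MMPP group. The 2 libraries of a group differed by more than counting error, with a chi-square per degree of freedom of 27.0 (WT), 102 (ADPKD) and 4.38 (ADPKD+MMPP, or 2.29 after its read numbers were divided by 2). *Pkd1*, the deleted gene, measured 17.7 and 17.2 FPKM in the WT libraries, 7.64 and 8.91 in the untreated and 4.34 and 3.99 in the treated *Pkd1*-/- libraries.

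Promoter sequences (250 bases before to 50 after the start, RefSeq, GRCm38.p6) were found for 7 of the 9 genes, all but *Klf5* and *Klf10*. They were rich in G and C, at 63.0% to 76.7% against a median of 52.7% over 32851 windows of the same length. GGGCGG, a GC box, was in 6 of 7 (35.7% of all windows), and CACCC, the core bound by KLFs themselves, in 5 of 7 (57.5%). Because the study turns on CREB, the factor that binds the cAMP response element (CRE), both strands were searched for TGACGTCA, the full CRE, and for TGACG, the short CRE, which lies within it. None of the 7 promoters held the full CRE (1.79% of all windows), none held the CArG box (1.63%), and 6 of 7 held the short CRE (20.8%), with *Klf6* as the one without. In *Klf3* it lay after the start, at base +20. The other 5 promoters are shown as the 100 bases that hold it, because these sequences differ in where the site lies (from 241 bases before the start in *Klf2* to 6 in *Klf15*); the short CRE is in capitals, read as CGTCA where it lies on the reverse strand. A match of these letters is a description of the sequence and not a bound site. The shares of all windows are no like background, because those windows are poorer in G and C than these promoters. For *Klf4* the 50 bases after the start did not match an annotated transcript in full, so its positions are less sure.
Klf2, chr8:72318812-72318911, plus strand: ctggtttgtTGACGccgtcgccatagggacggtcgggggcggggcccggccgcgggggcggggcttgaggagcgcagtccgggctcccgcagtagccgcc
Klf4, chr4:55532626-55532725, minus strand: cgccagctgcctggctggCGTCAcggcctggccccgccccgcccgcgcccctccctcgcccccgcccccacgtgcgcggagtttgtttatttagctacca
Klf9, chr19:23141126-23141225, plus strand: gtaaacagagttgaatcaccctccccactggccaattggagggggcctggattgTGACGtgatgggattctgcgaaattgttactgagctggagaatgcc
Klf13, chr7:63938916-63939015, minus strand: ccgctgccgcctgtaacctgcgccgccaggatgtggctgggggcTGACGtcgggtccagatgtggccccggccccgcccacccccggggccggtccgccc
Klf15, chr6:90462476-90462575, plus strand: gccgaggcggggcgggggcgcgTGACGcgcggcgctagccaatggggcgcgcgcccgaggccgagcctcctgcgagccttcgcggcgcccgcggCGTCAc

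In WT cells the 9 genes ran from 5.92 to 494 FPKM. *Klf4* (494 ± 1.94 FPKM, SD, n = 2) and *Klf2* (486 ± 5.18) were the highest, followed by *Klf6* (296 ± 40.2) and *Klf9* (75.0 ± 2.37). *Klf10* (32.0 ± 0.0039), *Klf13* (27.2 ± 2.91), *Klf3* (11.5 ± 0.54), *Klf5* (9.40 ± 1.99) and *Klf15* (5.92 ± 0.93) were lower, and the libraries of no 2 neighbours in this order overlapped. In ADPKD cells the order became *Klf4*, *Klf6*, *Klf2*, *Klf9*, *Klf10*, *Klf5*, *Klf13*, *Klf3* and *Klf15*, where only *Klf9* (51.7 ± 6.24) and *Klf10* (51.0 ± 2.73) overlapped. *Klf6* moved above *Klf2*, and *Klf5* above *Klf13* and *Klf3*. In ADPKD+MMPP libraries *Klf6* was first and *Klf10* last, with no overlap between neighbours. These orders depend on the exon length used, which for *Klf3* is 11243 bases against 5221 in its longest transcript. The part of exon share in the order of the ADPKD+MMPP libraries was not tested. The median difference between the 2 libraries of a group over the 9 genes was 0.088 (WT), 0.20 (ADPKD) and 0.039 (ADPKD+MMPP) on the log2(FPKM + 1) scale.

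**Figure D1:**
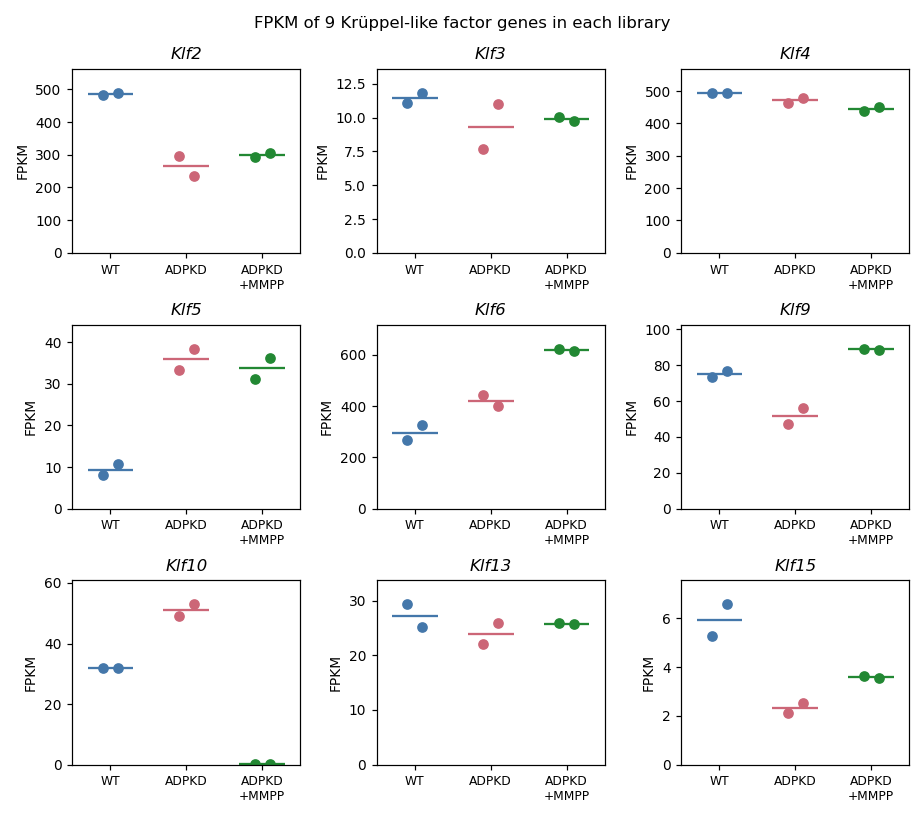
FPKM of the 9 KLF genes (y axis, from 0, its own scale in each panel) in the WT, ADPKD and ADPKD+MMPP groups; points are libraries and lines the means of 2. The ADPKD points lie below the WT points for *Klf2* and *Klf15* and above them for *Klf5* and *Klf10*, and *Klf10* is near 0 in both ADPKD+MMPP libraries.

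The first comparison asks which KLF genes differ between DBA-bound cells of *Pkd1*-/- and WT kidneys. *Klf5* and *Klf10* were higher in ADPKD than in WT, *Klf2* and *Klf15* were lower, and the other 5 genes did not pass the test. Called here means a change of at least 1.5-fold on the log2(FPKM + 1) scale with an unadjusted P under 0.05 in limma, the thresholds of the study. That is 4 of 9 genes against 26.7% of all genes tested, of which 14.2% were higher and 12.5% lower. The libraries of ADPKD and WT did not overlap for 8 of 9 genes, against 67% of all genes. The median log2 fold change was -0.18 over the 9 genes and 0.027 over all genes.

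*Klf5*, a growth-associated factor of epithelium, changed most. Its levels were 7.99 and 10.8 FPKM in WT and 33.4 and 38.4 in ADPKD. Both ADPKD libraries were thus far above both WT libraries, a 3.82-fold difference of means (log2 fold change 1.84, SE 0.18, limma adjusted p = 0.00363). Of all genes tested, 285 (1.92%) had a change as high or higher. Markers of principal cells, the collecting duct cells that take up water, were called in neither direction by limma (0 of 6 tested, and 0 of 6 at an unadjusted P under 0.05), and their summed level was 2074 and 2772 FPKM in WT and 2462 and 934 in ADPKD. Their median log2 fold change was -0.64, against 0.027 over all genes. The 2 ADPKD libraries lay far apart (*Hsd11b2* at 432 and 56.4 FPKM), so the lack of calls does not show like levels. The part of these markers in the *Klf5* difference was not tested.

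*Klf2*, the flow-induced factor of endothelium, measured 483 and 490.0 FPKM in WT and 296 and 235 in ADPKD. Both ADPKD libraries lay below both WT libraries, 1.83-fold by the means (log2 fold change -0.88, SE 0.15, adjusted p = 0.0114). Against 12.5% lower and 14.2% higher of all genes, 7 of 8 endothelial markers were lower in ADPKD and 1, *Plvap* of fenestrated endothelium, was higher. Their summed level was 1066 to 1255 FPKM in WT and 625 to 641 in ADPKD, and *Pecam1*, the defining marker, was at 126 to 146 and 67.5 to 67.9 FPKM. Their part in the *Klf2* difference was not tested, and in these bulk samples fewer cells of a type cannot be told from less RNA per cell. *Klf4*, which shares the flow response, stood at 492 and 495 FPKM in WT and 464 and 478 in ADPKD. Its groups did not overlap, but the log2 fold change was -0.07 with a 95% interval of -0.34 to 0.20.

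*Klf15*, a regulator of amino acid catabolism that is also known in podocytes, measured 5.26 and 6.57 FPKM in WT and 2.102 and 2.54 in ADPKD, from 194 to 568 reads in a library. It was 2.55-fold lower by the means (log2 fold change -1.06, SE 0.15, adjusted p = 0.00706). All 4 podocyte markers were lower too, against 12.5% of all genes. The markers summed to 872 and 1187 FPKM in WT and 199 and 86.8 in ADPKD, and their part was not tested. *Klf9*, the other glucocorticoid target, fell short of the fold threshold. It measured 73.3 and 76.6 FPKM in WT and 47.3 and 56.1 in ADPKD, without overlap (log2 fold change -0.53, SE 0.13, adjusted p = 0.0339). It passed when libraries were brought to a common FPKM sum (-0.62), to median ratios (-0.59) or to the same quantiles (-0.61). For *Klf13*, the relative of *Klf9*, the groups overlapped (29.3 and 25.2 FPKM in WT, 21.996 and 25.8 in ADPKD; 95% interval of the log2 fold change -0.53 to 0.17).

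*Klf10*, the TGF-β early gene, measured 32.0 FPKM in both WT libraries and 49.0 and 52.9 in ADPKD. It was 1.59-fold higher by the means (log2 fold change 0.66, SE 0.12, adjusted p = 0.0139), close to the threshold, and was not called with a common FPKM sum (0.57). *Klf6*, the injury-induced gene, measured 268 and 325 FPKM in WT and 442 and 401 in ADPKD, without overlap and short of 1.5-fold on the log2 scale (log2 fold change 0.51, SE 0.14, adjusted p = 0.0477). The library WT replicate 2 bears on this call, since *Klf6* was called without it (0.65). *Klf3*, the repressor, measured 11.1 and 11.9 FPKM in WT and 7.66 and 11.01 in ADPKD, and the 95% interval of its log2 fold change ran from -0.73 to 0.16. Of 8 macrophage and leukocyte markers tested, 7 were higher in ADPKD than in WT, against 14.2% of all genes. The list summed to 67.3 and 67.5 FPKM in WT and 483 and 578 in ADPKD. Its part in *Klf5*, *Klf6* and *Klf10* was not tested.

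**Figure D2:**
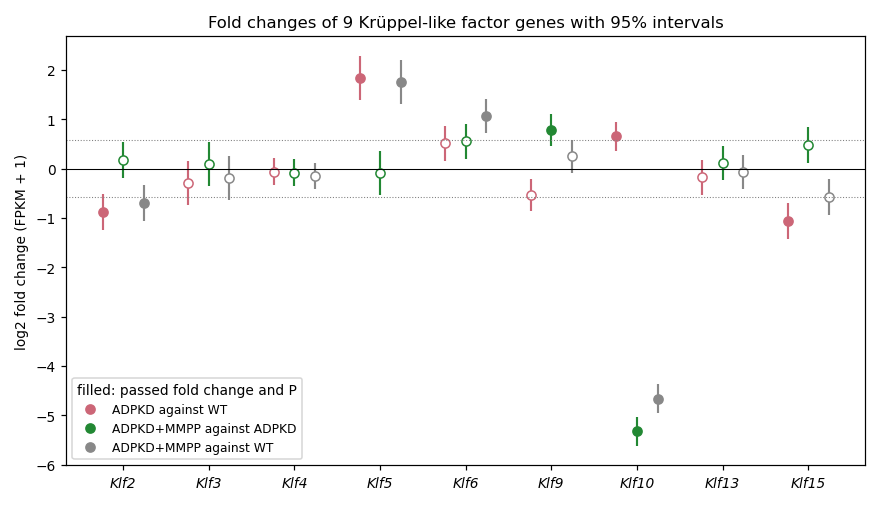
Log2 fold changes on the log2(FPKM + 1) scale (y axis) of the 9 KLF genes for ADPKD against WT, ADPKD+MMPP against ADPKD and ADPKD+MMPP against WT; bars are 95% intervals of limma, filled points passed fold change and P, and dotted lines mark 1.5-fold. *Klf5* is the highest (1.84 in ADPKD against WT) and *Klf10* the lowest (-5.32 in ADPKD+MMPP against ADPKD).

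The second comparison asks how the same genes differ between treated and untreated ADPKD cells. *Klf10* was lower and *Klf9* higher in ADPKD+MMPP than in ADPKD, and 7 of 9 genes were not called, against 70.9% of all genes called (27.9% higher and 43% lower). The libraries did not overlap for 5 of 9 genes, against 87.8% of all genes. The median log2 fold change of all genes was -0.36 in this comparison and that of the 9 genes 0.11. With other scalings the median of all genes ran from -0.55 to 0.10, and the share of calls that were higher, 39.3% here, from 31.9% to 54.0%, or 58.1% when the log2 level of each gene was centred, in each library, on the median level of protein-coding genes of like exon share. That centring of levels, which differs from subtracting the median change of the same genes, was made over protein-coding genes, over genes of any biotype and, as a version chosen after seeing the data, by the share within the longest transcript.

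*Klf10* measured 49.0 and 52.9 FPKM in ADPKD and 0.24 and 0.35 in ADPKD+MMPP, which is 6778 and 7088 reads against 12 and 16. Both ADPKD+MMPP libraries were far below every other library, 172-fold below ADPKD by the means (log2 fold change -5.32, SE 0.12, adjusted p = 1.95e-05). Relative to the median of all genes the change was -4.97, and 41 genes, *Klf10* included, had one as low or lower. *Klf10* (chr15:38291463-38300706, minus strand, GRCm38) has 6 annotated transcripts in GENCODE vM21, and 27.2% of its 4179 exon bases lie in only 1 of them. Within its longest transcript of 3044 bases that share is 0.099%. The 619 genes with a like share over all exons had a median of -1.31, and *Klf10* was the lowest of them. Of 1238 genes with a like share in the longest transcript, whose median was -1.73, 9 were as low or lower, *Klf10* included. Its change was -4.02 relative to the first of these medians and -3.59 relative to the second. With the levels centred in the 3 ways above, *Klf10* was called lower at -3.29 to -3.64. The part of exon share in this difference was not tested.

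*Klf9* measured 47.3 and 56.1 FPKM in ADPKD and 89.3 and 88.5 in ADPKD+MMPP. Both treated libraries were also above the WT libraries, and the difference from ADPKD was 1.72-fold by the means (log2 fold change 0.78, SE 0.13, adjusted p = 0.00247). The call was lost with a common FPKM sum (0.47) and with quantiles (0.48). The exon share of *Klf9*, which has 2 transcripts, is 83.6%, and the 618 genes with a like share had a median of 0.97, above *Klf9* itself. Relative to that median its change was -0.19. With the levels centred over protein-coding genes, over any biotype and by the longest transcript it was -0.34, -0.35 and 0.0096, not called in any of them.

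*Klf15* had the reverse position. It measured 2.102 and 2.54 FPKM in ADPKD and 3.64 and 3.55 in ADPKD+MMPP, or 120 and 108 reads in the latter. The treated libraries lay between those of ADPKD and WT, 1.55-fold above ADPKD by the means, and the log2 fold change of 0.47 (SE 0.15, adjusted p = 0.0272) was under the threshold on the log2(FPKM + 1) scale. Its exon share over 5 transcripts is 18.5%, and the 619 genes with a like share had a median of -1.35, with 29 of them as high as *Klf15* or higher. It was called higher with a pseudocount of 0.1 (0.62), with median ratios (0.71), with quantiles (1.07) and in the 3 centrings of levels (1.95 to 2.24). Against 43% lower and 27.9% higher of all genes, 2 of 4 podocyte markers were lower and 0 higher in ADPKD+MMPP than in ADPKD. Their sum was 89.5 and 86.9 FPKM against 199 and 86.8, and their part in *Klf15* was not tested.

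*Klf6* measured 442 and 401 FPKM in ADPKD and 624 and 612 in ADPKD+MMPP. The treated libraries were the highest of all 6, with a log2 fold change of 0.55 (SE 0.14, adjusted p = 0.0134) that missed the fold threshold. It was called with median ratios (0.87) and without ADPKD replicate 1 (0.62), and its 619 genes of like exon share (76.2%) had a median of 0.52. The summed macrophage and leukocyte markers were 1059 and 1110 FPKM in ADPKD+MMPP, against 483 and 578 in ADPKD. Of 8 tested, 4 were higher and 4 lower, against 27.9% and 43% of all genes. Among the higher were *Lyz2* (568 and 565 FPKM in ADPKD+MMPP), *C1qa* and *C1qb*, and among the lower *Csf1r* and the defining marker *Ptprc*. The part of these markers in the level of *Klf6* was not tested.

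*Klf5* measured 31.1 and 36.2 FPKM in ADPKD+MMPP beside 33.4 and 38.4 in ADPKD, and the libraries overlapped (log2 fold change -0.09, 95% interval -0.54 to 0.36). *Klf2* stood at 293 and 305 FPKM beside 296 and 235 (0.18, interval -0.19 to 0.54), also with overlap. *Klf4* measured 437.5 and 449.5 FPKM beside 464 and 478 (-0.09, interval -0.36 to 0.18). These intervals include changes near 1.5-fold for *Klf5* and *Klf2*, so the values do not show that their levels were alike. *Klf13* (25.9 and 25.7 FPKM beside 21.996 and 25.8) and *Klf3* (10.1 and 9.77 beside 7.66 and 11.01) overlapped as well. Beside the overlapping *Klf2*, the endothelial markers summed to 315 and 345 FPKM in ADPKD+MMPP and 641 and 625 in ADPKD. Of these markers 5 of 8 were lower and 0 higher, against 43% and 27.9% of all genes. The part of the markers in *Klf2*, and that of exon share in the markers, was not tested. The exon share is 100% in *Klf2*, which has a single transcript, and 93.5% in *Klf13*, and the 1857 genes with a like share had a median of 1.09. With the levels centred over protein-coding genes of like exon share, *Klf2* (-0.93), *Klf3* (-0.71), *Klf5* (-0.90) and *Klf13* (-1.0) were called lower. Over genes of any biotype *Klf3* (-0.68) and *Klf5* (-0.87) were called lower, but *Klf2* (0.26) and *Klf13* (0.19) were positive and not called. By the longest transcript *Klf2* (-0.73), *Klf4* (-0.62), *Klf5* (-0.77) and *Klf13* (-0.80) were called lower and *Klf3* (-0.43) was not.

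**Figure D3:**
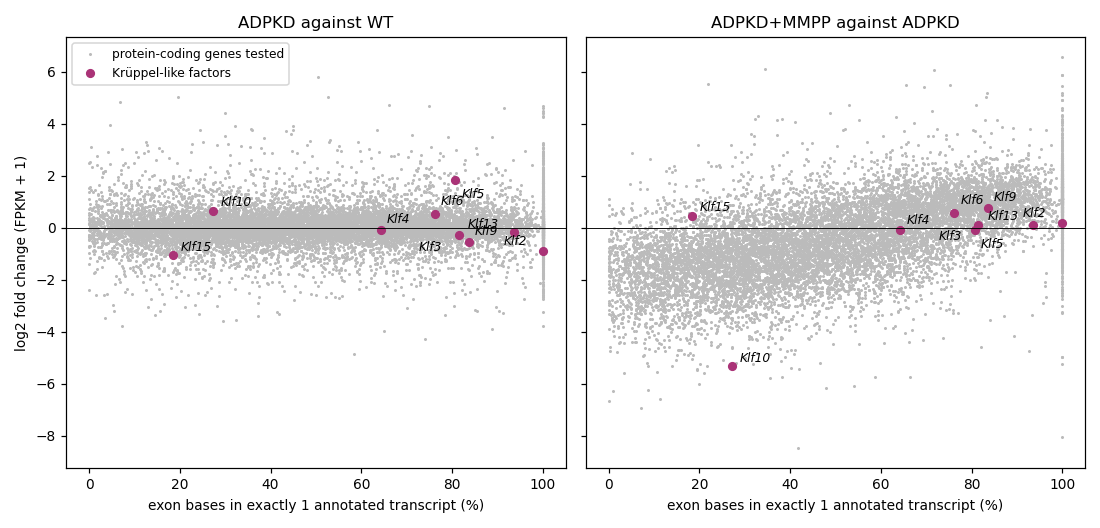
Log2 fold change on the log2(FPKM + 1) scale (y axis) against exon share, the percentage of exon bases in exactly 1 annotated transcript (x axis) for ADPKD against WT (left) and ADPKD+MMPP against ADPKD (right); grey points are 12375 protein-coding genes and larger points the KLF genes. The grey cloud is flat on the left and climbs on the right, from a median of -1.71 at shares of 0 to 10% to 1.05 at 80 to 100%, with *Klf10* at its lower and *Klf15* near its upper edge.

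The comparison of ADPKD+MMPP with WT uses the same libraries as the other two, so it adds no independent measurement. Called were *Klf5* (log2 fold change 1.75, SE 0.18, adjusted p = 0.000305) and *Klf6* (1.07, SE 0.14, adjusted p = 0.00086) as higher and *Klf2* (-0.70, SE 0.15, adjusted p = 0.00581) and *Klf10* (-4.67, SE 0.12, adjusted p = 1.47e-05) as lower. That is 4 of 9 against 73.9% of all genes (30.1% higher and 43.8% lower), and the libraries did not overlap for 8 of 9 against 91.9%. *Klf9*, at 88.5 to 89.3 FPKM against 73.3 to 76.6, was not called (0.24, 95% interval -0.08 to 0.57), nor was *Klf15* (-0.58, interval -0.95 to -0.22). The call of *Klf2* was lost with median ratios (-0.45), and that of *Klf6* with quantiles (0.42) and in 2 of the 3 centrings by exon share (0.30 and 0.36).

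The other KLF and SP genes bind like sequences. Beside the counts of calls in this and the following lists stand the shares of all genes tested. These were 26.7% called in ADPKD against WT and 70.9% in ADPKD+MMPP against ADPKD. Of 17 listed, 9 passed the filter on low values, and in ADPKD against WT 0 were higher and 1 lower, with a median log2 fold change of -0.33. The lower one was *Klf12*, a repressor, at 5.61 and 4.73 FPKM in WT and 1.96 and 1.49 in ADPKD (-1.18, adjusted p = 0.00533). Those with the highest levels, *Klf11* (36.5 and 35.6 FPKM in WT, 33.9 and 23.3 in ADPKD), *Klf7* (33.4 and 28.0, then 18.8 and 22.4) and *Klf16* (22.5 in both, then 17.7 and 17.6), were not called. After MMPP, relative to ADPKD, 3 were higher and 2 lower. *Sp2* and *Sp3*, at log2 fold changes of -2.87 and -2.89, have exon shares of 17.1% and 20.1%. *Sp5* (1.92) and *Klf16* (1.08) have 100%, and *Klf12* (0.61) 69.7%.

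KLFs recruit cofactors to chromatin and are degraded through ubiquitin ligases. Of 13 such genes tested, limma called 0 in ADPKD against WT (1 in each direction at an unadjusted P under 0.05 of any size), with a median of -0.09. *Hdac1*, a histone deacetylase, measured 32.2 and 31.1 FPKM in WT and 26.3 and 19.8 in ADPKD, *Ctbp1*, a partner of *Klf3*, 29.1 and 30.02, then 34.7 and 32.5, and *Kat2b*, a histone acetyltransferase, 14.5 and 12.9, then 11.8 and 10.8. Between ADPKD+MMPP and ADPKD, 3 of 13 were higher, among them *Hdac1* (0.93) and *Kat2b* (1.51), against 27.9% of all genes. Lower were 6, among them *Ctbp1* (-1.20), against 43% of all genes. The median exon share was 63.0% in the 3 higher genes and 34.6% in the 6 lower ones, and its part was not tested.

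Of 12 kinases, factors and receptors that act on KLF genes, 1 was called in ADPKD against WT, the TGF-β receptor *Tgfbr1*, at 10.3 and 11.8 FPKM in WT and 18.8 and 31.4 in ADPKD (log2 fold change 1.08, adjusted p = 0.027). *Tgfbr2*, its partner (38.9 and 39.1, then 42.8 and 32.6 FPKM), *Smad3*, which carries the TGF-β signal (23.7 and 22.7, then 26.5 and 59.5), and *Mef2d*, a target of the flow-responsive kinase ERK5 (34.8 and 33.7, then 33.3 and 41.7), were not. The treated libraries had 1 of these genes higher and 6 lower than ADPKD, against 27.9% and 43% of all genes. The glucocorticoid receptor *Nr3c1* had the lowest change on the log2(FPKM + 1) scale (-2.92). It measured 14.0 FPKM in both ADPKD libraries and 1.04 and 0.93 in ADPKD+MMPP. *Mef2c* (0.011 and 0.023 FPKM) and *Nr3c2* (0.052 and 0.25) had lower levels than *Nr3c1* in ADPKD+MMPP. The 6 lower genes had a median exon share of 33.0%, the 1 higher gene had 53.3% and the 5 not called 58.7%. The part of exon share in these differences was not tested.

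Of 14 genes listed as targets of KLFs, 13 were tested, and in ADPKD against WT 2 were higher and 4 lower (median -0.20). The list holds endothelial targets of *Klf2* and *Klf4*. *Thbd*, which encodes the anticoagulant thrombomodulin, measured 166 and 146 FPKM in WT and 58.7 and 77.5 in ADPKD (-1.20, adjusted p = 0.00729), *Nos3*, nitric oxide synthase, 33.5 and 28.5, then 14.9 and 18.8, and *S1pr1*, a sphingosine phosphate receptor, 142 and 109, then 64.3 and 78.5. These 3 were called lower, as were 7 of the 8 endothelial markers above. *Bcat2*, an enzyme of branched-chain amino acid breakdown and target of *Klf15*, was lower as well (17.5 and 15.5, then 7.88 and 5.82). The listed *Prodh* (-0.26), *Gpt* (-0.27), *Aass* (0.16) and *Pck1* (0.025) were not called. *Lgals3*, which encodes galectin-3, was higher (169 and 225, then 631 and 699; log2 fold change 1.76, adjusted p = 0.00352), and so was *Pdgfa*, a growth factor (1.08), while *Cdkn1a*, a cell cycle inhibitor, was not called (160 and 158, then 128 and 175). Treated against untreated ADPKD libraries had 3 of 13 higher and 6 lower, against 27.9% and 43% of all genes. The 6 were *Cdkn1a* (-2.46), *Lgals3* (-2.30), *Nos3* (-2.19), *Pdgfa* (-2.10), *Bcat2* (-1.50) and *S1pr1* (-0.88). The 3 higher genes were *Aass* (3.54), *Ccnd1* (1.88) and *Pck1* (1.46). *Thbd* was not called (68.7 and 68.8 FPKM in ADPKD+MMPP). The median exon share was 70.3% in the 3 higher genes and 43.6% in the 6 lower ones, and its part was not tested.

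*Klf9* and *Klf15* were set beside 8 other genes that glucocorticoids induce. In ADPKD against WT 5 were lower and 1 was higher (median -1.08). *Sgk1*, a kinase of sodium transport, fell from 363 and 375 FPKM to 173 and 176 (-1.07, adjusted p = 0.00439), and *Dusp1*, a phosphatase of MAP kinases, from 1041 and 979 to 513 and 425 (-1.11, adjusted p = 0.00571), while *Errfi1*, an inhibitor of the EGF receptor, was higher (0.73). Relative to ADPKD, 6 of 8 were lower and 0 higher in ADPKD+MMPP, against 43% and 27.9% of all genes. *Sgk1* was lower by the most (-5.03), and the median exon share of the 6 was 22.6%. *Klf9* (0.78) and *Klf15* (0.47) had positive changes in that comparison.

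*Klf2*, *Klf4*, *Klf6* and *Klf10* are also known to be induced when tissue is dissociated. Of 15 dissociation and immediate-early genes, 10 were lower and 0 higher in ADPKD against WT (median -0.82), *Fos* at 1907 and 2120.3 FPKM in WT and 953 and 604 in ADPKD, *Jun* at -1.03 and *Junb* at -1.19. Of the 4 KLF genes, *Klf2* was called lower (-0.88), *Klf10* was called higher (0.66), and *Klf4* (-0.07) and *Klf6* (0.51) were not called. After MMPP 8 of the 15 were higher and 5 lower than in ADPKD, against 27.9% and 43% of all genes. The exon share was 63.5% to 100% in those 8 and 18.7% to 48.6% in those 5. The part of dissociation in the KLF levels was not tested.

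**Figure D4:**
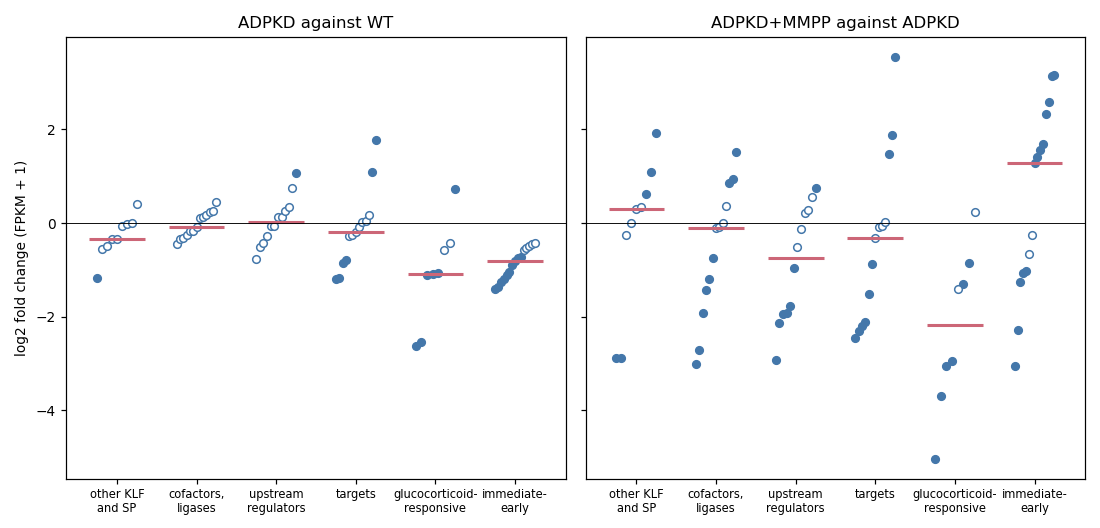
Log2 fold changes on the log2(FPKM + 1) scale (y axis) of the tested genes of 6 lists for ADPKD against WT (left) and ADPKD+MMPP against ADPKD (right); filled points passed fold change and P and lines are medians. On the left the immediate-early genes lie below 0 (median -0.82) and the cofactors near 0 (-0.09); on the right the points of most lists spread in both directions.

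The marker lists give what else the DBA-bound cells held. *Aqp2* of principal cells measured 1267 and 1776 FPKM in WT, 1392 and 677 in ADPKD and 3555 and 3499 in ADPKD+MMPP, so the labelled epithelium was present in every library. *Umod* of the thick ascending limb (987 and 319 in WT, 498 and 152 in ADPKD, 80.3 and 79.3 in ADPKD+MMPP), *Nphs1* of podocytes (63.7 and 98.7, 13.3 and 3.42, 0.20 and 0.33) and *Slc34a1* of proximal tubule (67.5 and 22.9, 44.9 and 4.44, 57.2 and 57.8) were also there. *Atp6v1b1* of intercalated cells stood at 61.5 and 58.0 FPKM in WT, 28.7 and 7.53 in ADPKD and 78.3 and 76.2 in ADPKD+MMPP, *Ptprc* of leukocytes at 0.93 and 0.60, 3.26 and 2.23, and 0.31 and 0.50, and *Col1a1* of fibroblasts at 0.36 and 0.39, 32.3 and 33.4, and 61.6 and 70.1. Single markers do not stand for their lists. Of 6 fibroblast and mural cell markers, 3 were higher and 2 lower in ADPKD than in WT (14.2% and 12.5% of all genes). In ADPKD+MMPP against ADPKD, 3 were higher and 3 lower, among the lower *Pdgfrb* (-4.21). There, 6 of 8 proximal tubule markers were higher and 0 lower (27.9% and 43% of all genes). Their sum was 87.2 and 16.9 FPKM in ADPKD and 489 and 488 in ADPKD+MMPP. No marker was at 0 in all libraries.

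**Figure D5:**
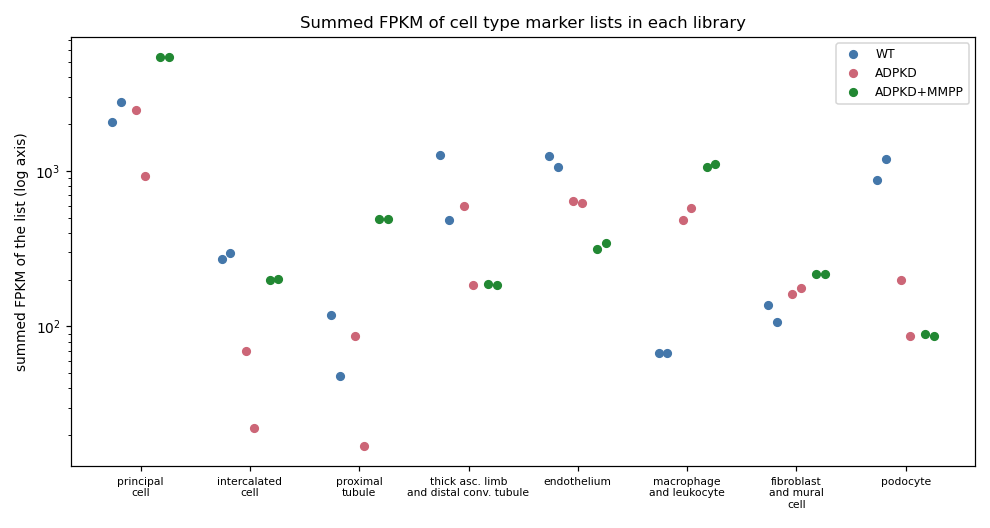
Summed FPKM of 8 cell type marker lists (y axis, log scale) in each library of WT, ADPKD and ADPKD+MMPP. The part of exon share in these sums was not tested. Endothelium falls from 1066 to 1255 in WT to 625 to 641 in ADPKD and 315 to 345 in ADPKD+MMPP, and the summed macrophage and leukocyte list goes from 67.3 to 67.5 in WT to 1059 to 1110 in ADPKD+MMPP, mostly through *Lyz2*, *C1qa* and *C1qb*, while its defining marker *Ptprc* is at 0.93 and 0.60 in WT and 0.31 and 0.50 in ADPKD+MMPP.

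The genes most like each KLF gene were named by the smallest distance between their centred log2(FPKM + 1) values over the 6 libraries, out of 7092 protein-coding genes. *Klf5* was nearest to *Rdh10*, a retinol dehydrogenase (distance 0.19; 8.89 and 11.8 FPKM in WT, 35.6 and 48.8 in ADPKD, 34.9 and 41.4 in ADPKD+MMPP), and to *Egfr*, the EGF receptor (0.33). *Klf2* was nearest to *Tmem47* (0.057) and to *Rgs2*, a regulator of G protein signalling (0.14), and *Klf10* to *Grn*, progranulin (0.19; 51.5 and 49.3, 73.8 and 74.1, 0.83 and 1.21 FPKM), and *Efna1*, an ephrin (0.19). The pairs for the others were *Txndc11* and *Zbtb7a* for *Klf3*, *Eif4a3* and *Plod3* for *Klf4*, *Tfg* and *Pkp2* for *Klf6*, *Hectd4* and *Nipbl* for *Klf9*, *Stk38l* and *Timp2* for *Klf13*, and *Tmod3* and *Foxc1* for *Klf15*, at distances of 0.059 to 0.24. These genes were picked for their likeness over the same 6 libraries, so their patterns are a description.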

How the data were processed

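Oligo(dT)-selected RNA of DBA-bound kidney cells was sequenced. Per the labels, the authors' notes name HISAT2 2.1.0 and featureCounts 1.6.0 on mm10. The authors deposited FPKM per gene, 1 file for each of the 6 libraries. Their annotation release is not given in the sources used here. FPKM times exon length (GENCODE vM21, GRCm38) fell within 0.05 of whole reads for 98.3% to 98.9% of low values, which gave the depth; the number of libraries limits the precision.

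The test was limma 3.58.1 (R 4.3.3) on log2(FPKM + 1), for genes that reached an FPKM of 1 in 2 or more libraries and in 1 fit of the 6 libraries, at the study's thresholds of 1.5-fold and unadjusted P under 0.05; p-values were adjusted over all 14862 genes (Benjamini-Hochberg). This fit shares 1 spread over the groups, so p-values of ADPKD against WT also use the spread of the ADPKD+MMPP libraries. Those libraries differed least from each other over the KLF genes. A fold change on this scale understates low genes. DESeq2, used by the authors, needs counts and was not run. In simulated data for ADPKD against WT, limma called 98% of 200 changed genes and 1.68% of 14662 unchanged ones. Both shares hold only for the size of change and the spread set in that simulation. They do not tell how often changes near 1.5-fold are found, or unchanged genes called, in the real libraries.

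The members and lists were chosen with earlier results of these data known. Named are all members, the 3 highest tested genes of each list, defining markers, *Pkd1* and the 2 genes most like each member (mean FPKM of at least 5). Other genes of lists were named after their values were seen. Replicate numbers did not pair the libraries. Alternatives covered pseudocount, filter, scaling, fit, thresholds, replicate block, exon share and left-out libraries.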

Additional observations from a re-analysis of the deposited data

How the results depend on the processing

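In ADPKD against WT, none of 175 values of members under the alternatives changed direction, 166 kept their side of the threshold, and 4 members stayed called in every alternative that left out a library (4 to 5 called); at a fold threshold of 2, 2 members were called (*Klf5* and *Klf15*). In ADPKD+MMPP against ADPKD the members called were 2, with 2 to 3 when 1 library was left out, 1 with a common FPKM sum and at 2-fold, 4 with median ratios, and 6, 4 and 6 when levels were centred by exon share over protein-coding genes, over genes of any biotype and by the longest transcript, the last chosen after seeing the data. In ADPKD+MMPP against WT they were 4, and 8 and 7 when centred over protein-coding genes and by the longest transcript. Over all 12375 protein-coding genes, that first centring called 4198 higher and 3025 lower against ADPKD, and 4434 and 3301 against WT. Of all 14862 genes, 3304 were higher and 7068 lower against ADPKD with a common FPKM sum, and 4963 and 5709 with median ratios. The counts of members thus describe the settings and are no result about the KLF genes. Log2 fold changes that turned in ADPKD+MMPP against ADPKD were, with a common sum, *Klf2* (-0.13), *Klf3* (-0.18) and *Klf13* (-0.19); with quantiles, *Klf2* (-0.22); with median ratios, *Klf4* (0.23) and *Klf5* (0.21); centred over protein-coding genes, *Klf2* (-0.93), *Klf3* (-0.71), *Klf9* (-0.34) and *Klf13* (-1.0); over any biotype, *Klf3* (-0.68), *Klf4* (0.058), *Klf6* (-0.22) and *Klf9* (-0.35); and by the longest transcript, *Klf2* (-0.73), *Klf3* (-0.43), *Klf6* (-0.13) and *Klf13* (-0.80). With 1 library left out at a time, *Klf3* ran from -0.14 to 0.33 and *Klf13* from -0.004 to 0.22, both negative without ADPKD replicate 1, and *Klf5* ran from -0.20 to 0.016, positive without ADPKD replicate 2 (0.0091) or ADPKD+MMPP replicate 1. In ADPKD+MMPP against WT the turned values were, with median ratios, *Klf3* (0.038), *Klf4* (0.10) and *Klf13* (0.17); with quantiles, *Klf3* (0.059) and *Klf9* (-0.12); with a common sum, *Klf9* (-0.15); centred over protein-coding genes, any biotype and the longest transcript, *Klf9* (-0.90, -0.90 and -0.58) and *Klf15* (1.34, 1.13 and 0.80); and without WT replicate 1, *Klf13* (0.032). The causes were not tested, and depth is lowest in the ADPKD+MMPP libraries, where *Klf10* rests on 12 and 16 reads. Same-numbered libraries deviated together by a correlation of 0.13 between WT and ADPKD, -0.008 between WT and ADPKD+MMPP and 0.014 between ADPKD and ADPKD+MMPP, and with the replicate block the members called were 4, 2 and 4, unchanged in number and in name.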
